A study of Mus musculus with 4 samples.

Results

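The genes described here are *Hmgcs1*, *Idi1*, *Fdps*, *Fdft1*, *Sqle*, *Lss*, *Cyp51* and *Insig1*, which are 8 of the 9779 genes analysed in RNA-Seq data from female mouse embryonic stem cells (ESCs). They were chosen by symbol as cholesterol synthesis genes and known targets of the transcription factor SREBP2, at a time when earlier results of these data were known. All 8 have a value in every library and passed the filter on low values. The cells were LF2 ESCs, a female line with the strain label 129/J, which had been grown on feeder cells and then kept without feeders before treatment. Treatment lasted 24 hr in each of 4 conditions: PBS+DMSO, PBS+GSK-J4, AA+DMSO and AA+GSK-J4. GSK-J4 was used at 10 μM and is a cell-permeable inhibitor of the H3K27 demethylases Utx and Jmjd3, and DMSO is its vehicle. The authors report that GSK-J4 can also inhibit other histone demethylases of the JmjC family, including those acting on H3K4. L-ascorbic acid (AA, vitamin C) was used at 50 μg/ml, and PBS is its vehicle. All conditions share the same line, so the values describe 1 line and no genotype differs. There is 1 library per condition, so no difference has a replicate check, and every difference below is described by its size without a p-value.

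Cells make cholesterol from acetyl-CoA through mevalonate, the isoprenoid building blocks, squalene and lanosterol. SREBP2, encoded by *Srebf2*, is held in the endoplasmic reticulum with its escort Scap by the Insig proteins when sterols are plentiful. When sterols are scarce the complex moves to the Golgi, where a pair of proteases release the part of SREBP2 that enters the nucleus and activates genes of the pathway, including *Insig1* itself. Proliferating cells such as ESCs need sterols for new membranes.

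The values are FPKM, a fragment count that the authors corrected for exon length and for the number of mapped fragments, so that levels of different genes can be set side by side. The deposited values were summed per gene, and changes are given as log2((FPKM + 1)/(FPKM + 1)), a scale on which weakly expressed genes appear to change less than they do. Genes that reached 1 FPKM in 1 or both libraries of a comparison were tested against size thresholds of 2-fold and 1.5-fold. The sums of FPKM over all genes lay between 271205 and 360621 and were lower in both GSK-J4 libraries than in both DMSO libraries. Strongly expressed genes as a whole were lower with GSK-J4, so each gene is also set beside its decile, which is the 1 of 10 equal groups of tested genes, split by the mean FPKM of the pair of libraries, that holds it. The tables hold no read counts and absolute depth is unknown, and steps of whole reads at low values gave only uncertain depths relative to PBS+DMSO. The best value was 0.641 for PBS+GSK-J4, with 0.428 scoring 1.69% lower, 0.796 for AA+DMSO, with 1.59 scoring 5.92% lower, and 0.524 for AA+GSK-J4, with 1.05 scoring 5.87% lower, so the order of depths is not settled. All 7 of the ESC markers examined were expressed, at 55.2 to 867 FPKM in PBS+DMSO, and 3 of 7 fibroblast markers that could come from feeder cells were listed, with summed levels of 7.54 to 8.85 FPKM in the 4 libraries. The defining fibroblast markers *Col3a1*, *Postn*, *Dcn* and *Lum* were not analysed here.

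All 8 genes were lower with GSK-J4 in the deposited values, both without and with AA, and 7 of them, all but *Cyp51*, also under each other scaling of the libraries that was tried. The members' FPKM summed to 294 in PBS+DMSO and 284 in AA+DMSO, against 167 in PBS+GSK-J4 and 173 in AA+GSK-J4. Both DMSO libraries therefore lay above both GSK-J4 libraries, and each of the 8 genes showed the same separation on its own. The share of all genes with this separation was not counted, so it is not read as a trait of the members. It also sets AA libraries beside PBS libraries, which may have been scaled separately. The deciles that hold the members had medians of -0.47 to -0.11 without AA and -0.41 to -0.07 with AA. Lower values with GSK-J4 were thus common among genes of similar expression. The median log2 ratio of the members was -0.65 without AA, with a range from -1.26 to -0.30, against a median of -0.17 over all 9196 genes tested. With AA it was -0.58, with a range from -1.11 to -0.21, against -0.16 over 9139 genes. A log2 ratio below 0 was common in these libraries, at 63% of tested genes without AA and 62.2% with AA. In bulk RNA, fewer cells of a type and less RNA per cell cannot be told apart. The summed level of the ESC markers was 2124 FPKM in PBS+DMSO and 1892 in AA+DMSO, against 1311 in PBS+GSK-J4 and 1177 in AA+GSK-J4. *Pou5f1* and *Tdgf1*, at 867 and 525 FPKM in PBS+DMSO, made up most of this sum. The most strongly expressed decile of tested genes had median log2 ratios of -0.60 without AA and -0.54 with AA. The single markers were not set beside their deciles, and the part of the ESC markers in the result was not tested.

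**Figure D1:**
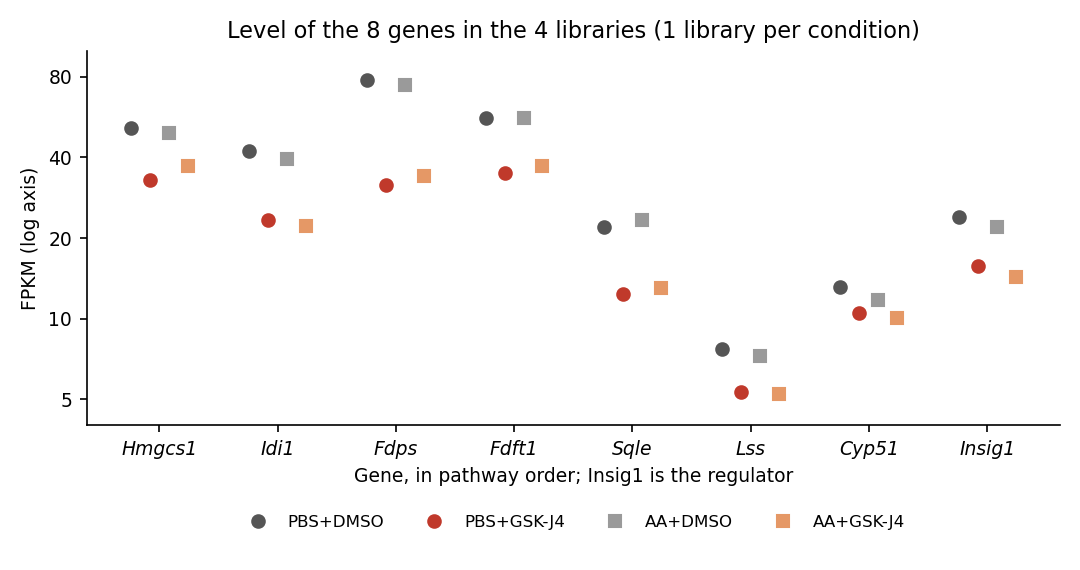
FPKM of the 8 genes (log axis) in the 4 libraries, with circles for PBS, squares for AA, grey for DMSO and red or orange for GSK-J4; there is 1 library per condition and no error bar. For every gene both grey points lie above both coloured points, with the widest gap at *Fdps* (77.5 and 74.7 against 31.7 and 34.1 FPKM) and the narrowest at *Cyp51* (13.2 and 11.8 against 10.5 and 10.0 FPKM).

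Before the values of the single genes, upstream sequence of *Hmgcs1* and *Lss* is shown for an enzyme at the start of the pathway and one at its first sterol step, since SREBP2 is known to bind sterol regulatory elements together with CCAAT-binding and GC-box-binding factors. Of the 8 genes, *Hmgcs1*, *Idi1*, *Lss*, *Cyp51* and *Insig1* matched the RefSeq promoter sequences for GRCm38.p6, the build also called mm10. *Hmgcs1* is shown at chr13:119690201-119690350 on the plus strand and *Lss* at chr10:76531455-76531587 on the plus strand, both 5′ to 3′. The stretches begin 150 bases before the RefSeq start and stop before the gene's start in both RefSeq and GENCODE M21, with matches in capitals to the sterol regulatory element TCACNCCAC, the CCAAT box, which reads ATTGG when the box lies on the other strand, and the GC box GGGCGG, which then reads CCGCCC.
Hmgcs1: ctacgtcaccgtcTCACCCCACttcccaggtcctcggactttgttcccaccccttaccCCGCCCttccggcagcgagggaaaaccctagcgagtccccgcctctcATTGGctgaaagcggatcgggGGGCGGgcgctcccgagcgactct
Lss: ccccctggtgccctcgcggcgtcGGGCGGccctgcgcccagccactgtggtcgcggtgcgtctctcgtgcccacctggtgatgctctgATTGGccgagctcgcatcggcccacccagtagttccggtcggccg

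In *Hmgcs1* the sterol regulatory element lies 137 to 129 bases before the start on the gene's own strand, with a CCAAT box on the other strand at 45 to 41 bases and GC boxes at 92 to 87 and 24 to 19 bases. The *Lss* stretch holds a CCAAT box on the other strand 62 to 58 bases before the start and a GC box at 127 to 122 bases. Within the 250 bases before the start, searched on both strands, 1 of the 5 members matched the sterol regulatory element (*Hmgcs1*), and 1.05% of all 32851 RefSeq promoters did. A CCAAT box was found in 5 of 5 members and in 33.8% of all promoters, and a GC box in 5 of 5 members and in 32.7% of all promoters. Of the 12 other sterol enzymes with a promoter sequence, 0 matched the sterol regulatory element, 11 held a CCAAT box and 11 a GC box. These enzymes were counted per gene, with a match in any of a gene's promoters, while the shares of all promoters are per promoter. The matches shown do not overlap each other, and a match is a description of the letters and not of binding. Positions are counted from the RefSeq start, and GENCODE M21 starts *Idi1*, *Cyp51*, *Insig1* and *Lss* 105, 49, 49 and 17 bases farther upstream. All matches in *Idi1*, at 69 to 10 bases, therefore lie inside the GENCODE gene and not upstream of it. So does the CCAAT box of *Cyp51*, at 29 to 25 bases. The counts of members and the shares of all promoters use the RefSeq start alone.

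*Hmgcs1* encodes the cytosolic HMG-CoA synthase, which makes HMG-CoA on the way to mevalonate (chr13:119690382-119708161, plus strand). Its level was 51.7 FPKM in PBS+DMSO and 49.4 in AA+DMSO, against 32.9 in PBS+GSK-J4 and 37.0 in AA+GSK-J4. Both GSK-J4 libraries were lower than both DMSO libraries, with the lowest value in PBS+GSK-J4. The log2 ratio of GSK-J4 to DMSO was -0.64 without AA, where 63.6% of the level was left, and -0.40 with AA, where 75.03% was left. Its decile of expression had a median of -0.47 without AA, and 280 of its 920 genes were lower than *Hmgcs1*. With AA the median of the decile was -0.41, so *Hmgcs1* lay at the middle of genes of similar expression, with 463 of 914 lower. An antisense gene, *Gm48342*, overlaps the locus, and whether reads were counted by strand is not given in the sources used here.

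*Idi1* and *Fdps* act in the isoprenoid part of the pathway. Idi1 interconverts the isoprenoid building blocks IPP and DMAPP, and its gene lies at chr13:8885565-8892402 on the plus strand. *Idi1* was at 42.1 FPKM in PBS+DMSO and 39.4 in AA+DMSO, against 23.3 in PBS+GSK-J4 and 22.1 in AA+GSK-J4. The GSK-J4 libraries lay well under the DMSO libraries and near each other. GSK-J4 set against DMSO gave log2 ratios of -0.83 and -0.81, without and with AA, which left 55.4% and 56.1% of the level. Against medians of -0.47 and -0.41 in its decile, 125 of 920 and 94 of 914 genes were lower than *Idi1*.

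Farnesyl diphosphate synthase, encoded by *Fdps* (chr3:89093586-89101956, minus strand), joins these blocks to farnesyl diphosphate, from which both sterols and protein prenyl groups are made. *Fdps* was at 77.5 FPKM in PBS+DMSO and 74.7 in AA+DMSO, against 31.7 in PBS+GSK-J4 and 34.1 in AA+GSK-J4. It was the most abundant of the 8 genes in both DMSO libraries and ranked behind *Fdft1* and *Hmgcs1* in both GSK-J4 libraries. Its log2 ratio of -1.26 without AA and -1.11 with AA was the lowest of the members in each comparison, with 40.9% and 45.7% of the level left. Of its decile, 12 of 920 genes were lower without AA and 20 of 914 with AA, at decile medians of -0.47 and -0.41. *Fdps* was the 1 member at least 2-fold lower in each comparison, where 3.5% of tested genes were at least 2-fold lower without AA and 3.38% with AA. The annotated genes *Gm43738* and *Gm22935* overlap *Fdps* on the same strand, and how reads were shared among them is not known.

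**Figure D2:**
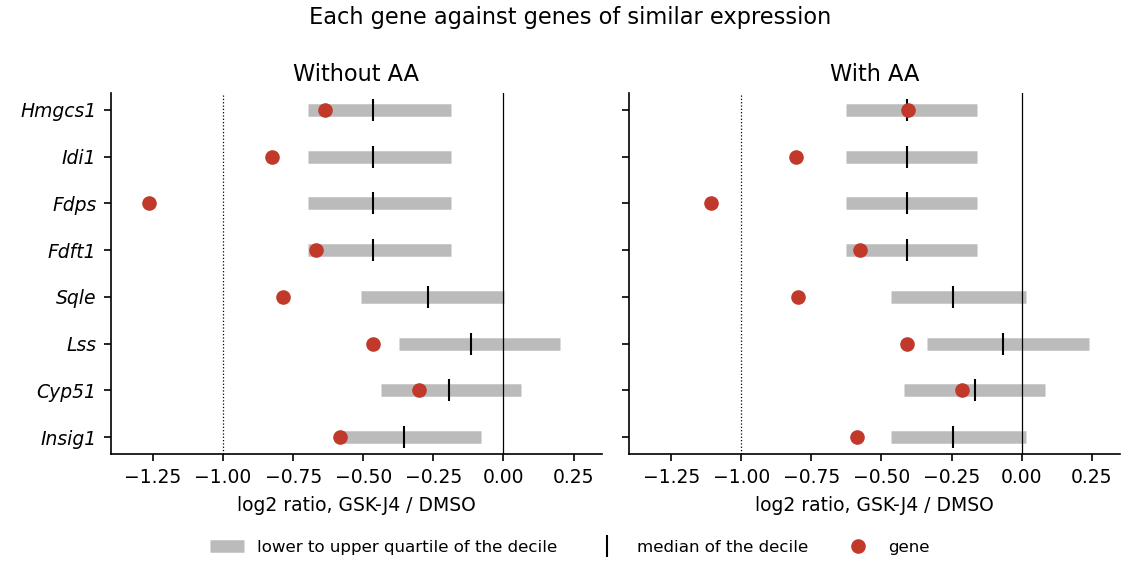
Log2 ratio of GSK-J4 to DMSO (x axis) for each of the 8 genes (red points) beside the median (black tick) and the span from lower to upper quartile (grey bar) of the decile of tested genes with similar mean FPKM, without AA (left) and with AA (right). The dotted line marks a 2-fold lower level; *Fdps* lies beyond it in both panels (-1.26 and -1.11), and *Hmgcs1* lies on the median of its decile with AA (-0.40 against -0.41).

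*Fdft1* and *Sqle* encode the enzymes that commit the pathway to sterols. Squalene synthase, the product of *Fdft1* (chr14:63146103-63177882, minus strand), joins a pair of farnesyl diphosphate molecules. *Fdft1* was at 56.1 FPKM in PBS+DMSO and 56.0 in AA+DMSO, against 34.9 in PBS+GSK-J4 and 37.2 in AA+GSK-J4. The DMSO libraries were almost equal, and both were above the GSK-J4 libraries. On the log2 scale the ratio was -0.67 (-0.58 with AA), and 255 of 920 and 282 of 914 genes of its decile were lower, which placed it on the lower side of genes of similar expression but not under their lower quartile. The annotated gene also overlaps *Ctsb* on the opposite strand, and *Ctsb* has a value of its own in the tables.

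Squalene epoxidase, encoded by *Sqle* (chr15:59315035-59374180 as deposited, plus strand), carries out the first oxygen-dependent step and is a rate-limiting enzyme of the sterol branch. *Sqle* was at 22.0 FPKM in PBS+DMSO and 23.3 in AA+DMSO, against 12.4 in PBS+GSK-J4 and 13.0 in AA+GSK-J4. The lowest DMSO value was above the highest GSK-J4 value. Its log2 ratios were -0.79 and -0.80, without and with AA, which left 56.1% and 55.8% of the level. Its decile of less strongly expressed genes had medians of -0.27 and -0.25, and 64 of 920 and 53 of 914 genes were lower than *Sqle*. The deposited locus is longer than the GENCODE M21 gene, which ends at 59331192, and also spans *Washc5*.

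*Lss* and *Cyp51* act on the sterol ring. Lanosterol synthase, encoded by *Lss* (chr10:76531609-76557139, plus strand), closes the ring system. *Lss* was the least abundant member in every library, at 7.70 FPKM in PBS+DMSO and 7.25 in AA+DMSO, against 5.31 in PBS+GSK-J4 and 5.22 in AA+GSK-J4. The values of the groups did not overlap, but at this level the pseudocount has more weight than for the other members. Its log2 ratios of -0.46 and -0.41 stood against decile medians of -0.11 and -0.07. In its decile, 161 of 920 and 191 of 914 genes were lower. The antisense gene *4930483K19Rik* overlaps the locus.

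Lanosterol 14α-demethylase, encoded by *Cyp51* (chr5:4080671-4104764, minus strand), takes the first step from lanosterol towards cholesterol. *Cyp51* was at 13.2 FPKM in PBS+DMSO and 11.8 in AA+DMSO, against 10.5 in PBS+GSK-J4 and 10.0 in AA+GSK-J4. It changed the least of the 8 genes, with log2 ratios of -0.30 and -0.21 and 79.7% and 85.2% of the level left. These values lay between the quartiles of its decile, where 349 of 919 and 418 of 914 genes were lower at medians of -0.20 and -0.17. The sign for *Cyp51* turned when the libraries were given equal totals, to 0.06 without AA and 0.10 with AA, and after division by the upper quartile of each library it was -0.04 without AA and 0.02 with AA. *Akap9* overlaps the locus on the opposite strand.

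*Insig1* is the regulator among the 8 genes. Its protein retains the SREBP2 and Scap complex in the endoplasmic reticulum, and the gene (chr5:28071363-28078663, plus strand) is itself switched on by SREBP2, so its level is often read beside the enzymes. *Insig1* was at 24.0 FPKM in PBS+DMSO and 22.0 in AA+DMSO, against 15.7 in PBS+GSK-J4 and 14.3 in AA+GSK-J4. Both GSK-J4 libraries were below both DMSO libraries. The log2 ratios were almost equal at -0.58 and -0.59, and 65.4% and 65.1% of the level was left. Genes of its decile had medians of -0.35 and -0.25, and 223 of 919 and 145 of 914 were lower than *Insig1*. No annotated gene overlaps *Insig1*.

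Read against genes of similar expression, 8 of 8 members lay under the median of their decile without AA and 7 of 8 with AA, with *Hmgcs1* as the exception. The median distance from the decile was -0.29 without AA and -0.34 with AA on the log2 scale. *Idi1*, *Fdps*, *Sqle*, *Lss* and *Insig1* lay under the lower quartile of their decile in both comparisons, while *Hmgcs1*, *Fdft1* and *Cyp51* did so in neither. At a threshold of 1.5-fold, 5 members were lower without AA (*Hmgcs1*, *Idi1*, *Fdps*, *Fdft1* and *Sqle*), where 19.3% of tested genes were. With AA there were 4 (*Idi1*, *Fdps*, *Sqle* and *Insig1*), where 17.8% of tested genes were. *Insig1* in both comparisons and *Fdft1* with AA lay within 0.01 of that threshold on the log2 scale, on one side or the other. No member was at least 2-fold higher, as 4.96% of tested genes were without AA and 4.13% with AA.

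**Figure D3:**
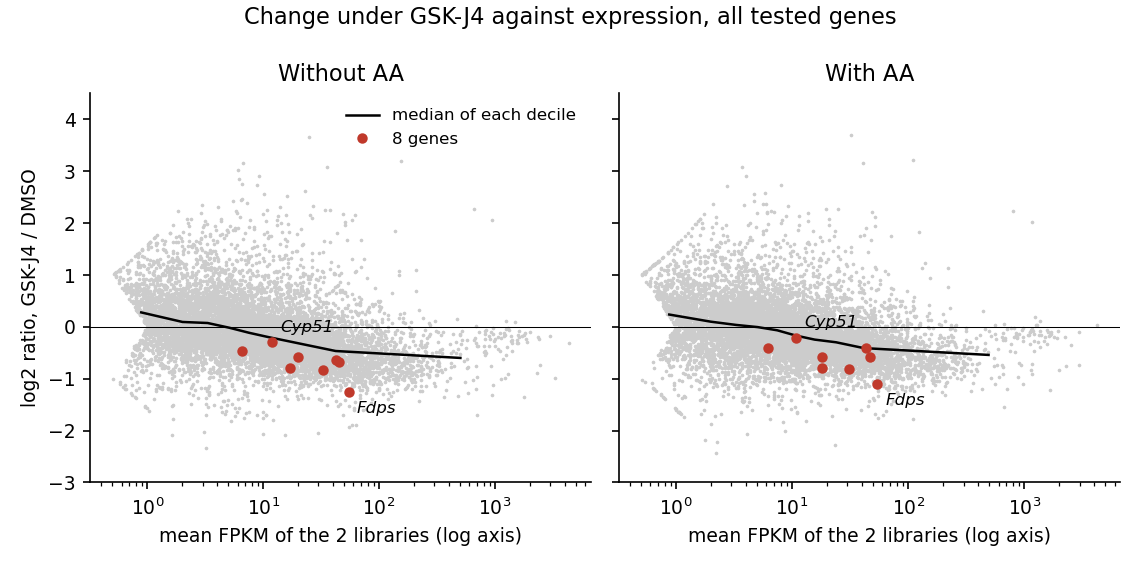
Log2 ratio of GSK-J4 to DMSO (y axis) against the mean FPKM of the 2 libraries (x axis, log scale) for all tested genes (grey points) and the 8 members (red points), without AA (left) and with AA (right), where the black line joins the medians of the deciles of expression at the middle of each decile's range. The line starts at 0.28 (without AA) and 0.24 (with AA) and ends at -0.60 and -0.54, and the members lie on or under it, *Fdps* farthest.

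Ratios between genes of the same library do not depend on the scaling of libraries. The level of *Fdps* relative to *Hmgcs1* was 1.5 in PBS+DMSO and 1.51 in AA+DMSO, against 0.963 in PBS+GSK-J4 and 0.920 in AA+GSK-J4. *Fdps* thus went from above to below *Hmgcs1* in both GSK-J4 libraries. Relative to *Fdft1*, *Fdps* was at 1.38 and 1.33 in DMSO and at 0.908 and 0.915 in GSK-J4. The level of *Fdft1* relative to *Hmgcs1* moved less, with 1.09 and 1.14 in DMSO and 1.06 and 1.01 in GSK-J4. The order of levels in PBS+DMSO was *Fdps*, *Fdft1*, *Hmgcs1*, *Idi1*, *Insig1*, *Sqle*, *Cyp51* and *Lss*, and in both GSK-J4 libraries it was *Fdft1*, *Hmgcs1* and *Fdps* with the rest as before. In AA+DMSO *Sqle* and *Insig1* changed places. With 1 library per condition it cannot be said which neighbours in these orders differ beyond their spread.

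The gene for SREBP2 itself showed almost the same deposited level in all libraries. *Srebf2* was at 25.8 FPKM in PBS+DMSO and 27.0 in AA+DMSO, against 25.3 in PBS+GSK-J4 and 25.6 in AA+GSK-J4, with log2 ratios of -0.03 and -0.08, which became 0.35 and 0.25 when the libraries were given equal totals. Relative to *Srebf2* in the same library, all 8 members were lower in GSK-J4 than in DMSO. Because *Srebf2* changed little in the deposited values, this count nearly repeats that of log2 ratios below 0. Of all tested genes, 63% were below 0 without AA and 62.2% with AA. The exact share of all genes lower relative to *Srebf2* was not counted. *Srebf2* itself lay above the median of its decile, by 0.33 without AA and 0.22 with AA. *Fdps* relative to *Srebf2* was 3.0 in PBS+DMSO and 2.76 in AA+DMSO, against 1.25 in PBS+GSK-J4 and 1.33 in AA+GSK-J4, and *Cyp51*, the smallest change, was 0.509 and 0.435 in DMSO and 0.415 and 0.391 in GSK-J4. These are transcript levels, and neither cleavage nor nuclear SREBP2 was measured here.

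Among the 13 genes for SREBP processing and sterol-regulated turnover, 12 were tested in each comparison, with 6 lower and 6 higher both without and with AA, at medians of 0.04 and -0.03. With equal totals 1 was lower and 11 were higher without AA and 2 were lower and 10 higher with AA, and the medians were 0.38 and 0.29, above those of all tested genes at 0.17 and 0.14. *Scap*, the escort of SREBP2, was at 15.8 FPKM in PBS+DMSO and 16.3 in AA+DMSO, against 25.6 in PBS+GSK-J4 and 23.6 in AA+GSK-J4. Its direction was opposite to that of *Insig1*, with log2 ratios of 0.66 and 0.51, and the level of *Scap* relative to *Insig1* in the same library was 0.659 and 0.743 in DMSO and 1.63 and 1.65 in GSK-J4. *Mbtps1*, which encodes the site-1 protease, had log2 ratios of -0.26 and -0.59, of which the first turned to 0.11 with equal totals. *Insig2*, the paralog of *Insig1*, was chosen after its values were seen. It was at 8.97 and 7.76 FPKM in the DMSO libraries without and with AA and at 10.1 and 9.22 in the GSK-J4 libraries, so that *Insig1* relative to *Insig2* was 2.68 and 2.83 in DMSO and 1.56 and 1.55 in GSK-J4.

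The other enzymes of sterol synthesis were mostly lower as well in the deposited values, by less, and their median changed sign with the scaling, to 0.03 without AA and 0.04 with AA when the libraries were given equal totals. Of the 14 on the list, 13 had a value and *Tm7sf2* was not analysed here. In each comparison 12 of the 13 were lower and 1 was higher, with medians of -0.34 without AA and -0.29 with AA. With equal totals 5 were lower and 8 higher without AA and 6 were lower and 7 higher with AA. The 1 that was higher in the deposited values was *Sc5d*, a sterol desaturase gene chosen after its values were seen. Set beside their deciles, 9 lay under the median without AA and 8 with AA. *Ebp*, the sterol isomerase, was the 1 enzyme of this list at least 2-fold lower, at 80.1 FPKM in PBS+DMSO and 69.6 in AA+DMSO, against 37.2 in PBS+GSK-J4 and 32.3 in AA+GSK-J4, with log2 ratios of -1.09 and -1.08. *Msmo1*, a sterol methyl oxidase, had log2 ratios of -0.17 and -0.11, and *Pmvk*, phosphomevalonate kinase, -0.17 and -0.20, and with equal totals these 4 values were above 0. *Ebp* stayed below 0 under each scaling, at -0.71 and -0.75 with equal totals.

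**Figure D4:**
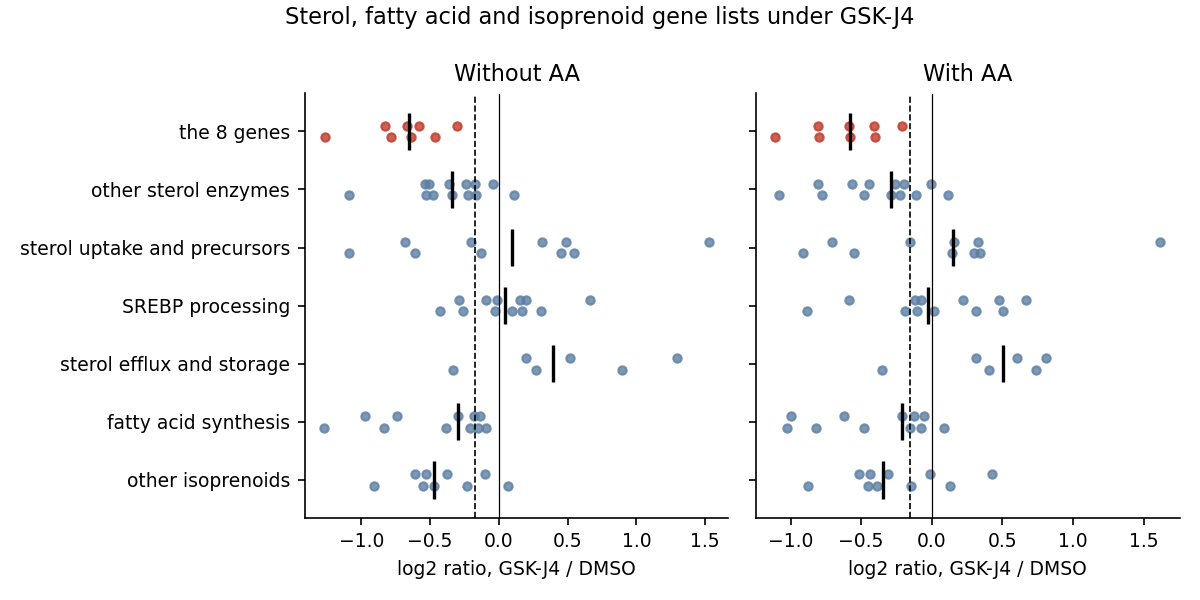
Log2 ratio of GSK-J4 to DMSO (x axis) for the tested genes of the members (red) and of 6 related lists (blue), 1 point per gene, without AA (left) and with AA (right), where the thick black line is the median of a list and the dashed line the median of all tested genes. The members have the lowest median of the 7 groups in both panels (-0.65 and -0.58), and the efflux and storage genes the highest (0.39 and 0.50). With equal totals the medians of other sterol enzymes and of fatty acid synthesis turn above 0.

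Genes of sterol uptake, trafficking and precursor supply did not move one way in the deposited values. Of 10 with a value among 11 listed, 5 were lower and 5 higher without AA and 4 were lower and 6 higher with AA, at medians of 0.09 and 0.15. With equal totals 3 were lower and 7 higher in each comparison, at medians of 0.41 and 0.43. *Acly*, which makes cytosolic acetyl-CoA, had log2 ratios of -0.61 and -0.55, and *Tmem97*, a sterol-responsive membrane protein gene, -0.69 and -0.71. *Npc2*, which carries cholesterol out of lysosomes, was higher at 0.31 and 0.33. *Lpin1*, which encodes a phosphatidate phosphatase, was at least 2-fold higher in both, at 3.6 FPKM in PBS+DMSO and 3.20 in AA+DMSO, against 12.3 in PBS+GSK-J4 and 11.9 in AA+GSK-J4.

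The efflux, storage and LXR genes lay on the other side. Of 10 listed, 6 had a value, and 1 was lower and 5 were higher in each comparison, at medians of 0.39 and 0.50. *Abca1*, which exports cholesterol, was at 3.02 FPKM in PBS+DMSO and 2.45 in AA+DMSO, against 4.74 in PBS+GSK-J4 and 4.76 in AA+GSK-J4, with log2 ratios of 0.52 and 0.74. *Soat1*, which esterifies cholesterol for storage, had log2 ratios of 0.20 and 0.40, and *Nr1h2*, which encodes the receptor LXRβ, -0.34 and -0.36, of which the first turned to 0.04 with equal totals. These genes are weakly expressed apart from *Nr1h2*, and weakly expressed genes as a whole were higher with GSK-J4, with medians from 0.28 in the lowest decile to 0.07 in the decile with means of 2.62 to 4.19 FPKM without AA, and from 0.24 to 0.04 in the same deciles with AA. Set beside their deciles, the 6 genes had a median distance of 0.28 without AA and 0.44 with AA. In each comparison 1 of the 6 lay under the median of its decile.

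Genes of fatty acid synthesis, the branch served mainly by SREBP1, were lower in 11 of 11 without AA and in 10 of 11 with AA, at medians of -0.30 and -0.21, but with equal totals in 5 of 11 in each, at medians of 0.06 and 0.10. *Fasn*, the fatty acid synthase, was at 69.6 FPKM in PBS+DMSO and 70.0 in AA+DMSO, against 41.3 in PBS+GSK-J4 and 39.2 in AA+GSK-J4. The desaturase genes *Scd2* and *Scd1* had log2 ratios of -0.83 and -0.996 and of -1.27 and -1.03, and *Scd1* was at least 2-fold lower in both comparisons. *Elovl5*, an elongase, had ratios of -0.21 and -0.13, and 0.16 and 0.20 with equal totals. Of the genes that use farnesyl diphosphate and related isoprenoids for other products, 8 of 9 tested were lower without AA and 8 of 10 with AA, at medians of -0.47 and -0.35 that stayed below 0 under each scaling. With equal totals 6 of these 9 and 6 of these 10 were lower. *Rabggtb*, a subunit of the Rab prenyltransferase, had log2 ratios of -0.91 and -0.87, and the farnesyltransferase subunits *Fnta* and *Fntb* had -0.55 and -0.39 and -0.47 and -0.44.

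The changes of the members with AA were small in size. These comparisons set libraries of the 2 deposited tables side by side, which may have been scaled separately, and they use the same 4 libraries as the GSK-J4 comparisons. The median log2 ratio of AA to PBS was -0.07 in DMSO, with a range from -0.15 (*Cyp51*) to 0.08 (*Sqle*), and 0.02 in GSK-J4, with a range from -0.13 (*Insig1*) to 0.17 (*Hmgcs1*). The medians over all tested genes were -0.05 and -0.02. In DMSO 7 members were below 0 and 1 above, and in GSK-J4 4 were below and 4 above. None of the 8 changed 1.5-fold in either direction, as 4.31% of tested genes did in DMSO and 4.25% in GSK-J4. Beside their deciles, 5 members lay under the median in DMSO and 3 in GSK-J4. *Insig1* lay under the lower quartile of its decile in both AA comparisons, and *Cyp51* did so in DMSO. In GSK-J4, 853 of 918 genes of its decile were lower than *Hmgcs1*, and 784 of 918 were lower than *Fdps*.

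**Figure D5:**
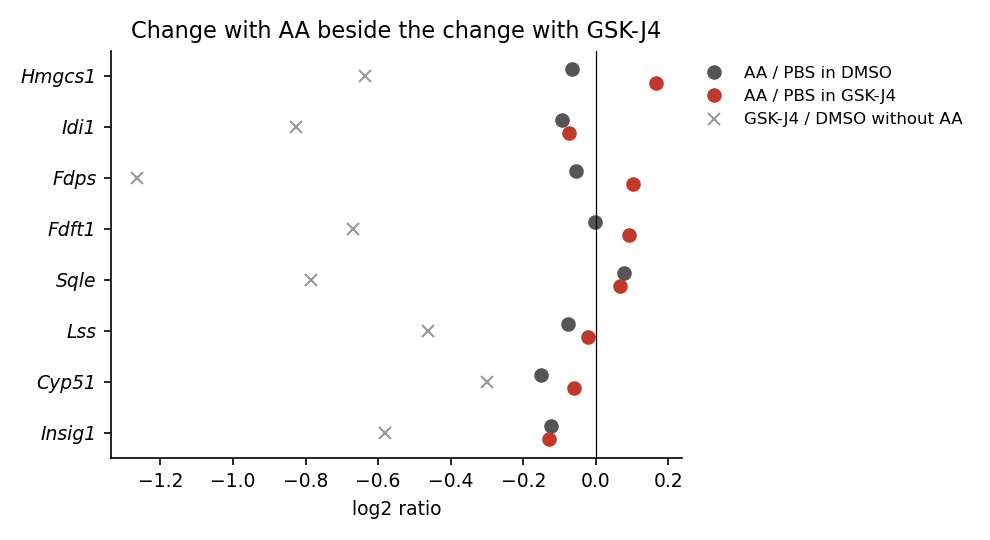
Log2 ratio (x axis) of AA to PBS in DMSO (grey points) and in GSK-J4 (red points) for the 8 genes, with the log2 ratio of GSK-J4 to DMSO without AA (crosses) for scale. All AA points lie between -0.15 and 0.17, to the right of every cross. Those of *Hmgcs1*, *Fdps* and *Fdft1* lie on different sides of 0 in the deposited values, but not with equal totals.

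The log2 ratio of GSK-J4 to DMSO with AA minus that without AA had a median of 0.07 over the members and ranged from -0.01 to 0.23. The difference from DMSO was smaller with AA for 6 members and larger for *Sqle* and *Insig1*, at -0.011 and -0.0044. The share of all genes with a smaller difference was not counted. The medians of the members' deciles moved the same way. In the decile of *Hmgcs1*, *Idi1*, *Fdps* and *Fdft1* the median was -0.47 without AA and -0.41 with AA. *Hmgcs1* had the largest of these differences at 0.23, followed by *Fdps* at 0.16. For *Idi1*, *Sqle* and *Insig1* the values with and without AA lay within 0.02 of each other. No spread between libraries of a condition is known, so none of these differences was tested.

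The genes whose pattern over the 4 libraries was most like the mean pattern of the members were *Zcchc8*, *Bms1*, *Ubqln4*, *Trmt6* and *Nup107*. Their Euclidean distance from it, on log2 values with the mean of each gene taken off, was 0.019, 0.022, 0.025, 0.028 and 0.028, among 5377 genes outside the lists with an FPKM of at least 5 in every library. The members themselves were farther from their own mean pattern, from 0.073 for *Fdft1*, with 167 of these genes closer, to 0.54 for *Fdps*, with 3453 closer. So each member was less like the members' mean than many genes outside the lists were.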

How the data were processed

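Total RNA from 4 conditions of LF2 ESCs was sequenced, with 1 library each. The authors removed duplicates from single-end reads, aligned them with TopHat2, to mm10 per the submitters' processing notes, and calculated FPKM with Cufflinks2. Versions, strand use and how libraries were scaled to each other are not given in the sources used here. The labels name a DNA library kit. The deposited FPKM values sit in columns headed as log10 but are linear. The 2 deposited tables also hold the authors' own fold changes, p-values and q-values, which were not used.

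Each table lists 11033 coding sequence groups of 9936 gene symbols. FPKM was summed per gene, without the 157 genes whose estimate is marked as failed. Log2 ratios used a pseudocount of 1 and genes that reached 1 FPKM in 1 or both libraries. Tested genes were split into 10 equal groups (deciles) by the mean FPKM of the pair. Without replicates, no test was run on single genes. Relative depth came from whole-read steps of weakly expressed genes, a method checked, like the 2-fold counts, on simulated data. Overlaps and loci were read from GENCODE M21 on the same build.

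Beside the members, the text names the 3 most strongly expressed genes of each of 6 lists, any gene of a list at least 2-fold changed the same way in both GSK-J4 comparisons, and the 5 genes with the most similar pattern. Any other gene is said to be chosen with its values seen. The members and lists were chosen with earlier results of these data known. Symbols listed without a value were not analysed here. Of the listed genes with a value, some are counted but not reported here by name. Alternatives were pseudocounts of 0.1 and 5, other filters, 3 scalings, the strongest row in place of the sum, failed estimates kept and a 1.5-fold threshold. Python 3.11.15, numpy 2.4.6, pandas 2.3.3 and matplotlib 3.10.9 were used.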

Additional observations from a re-analysis of the deposited data

Results flagged for a closer look

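For 3 of the 8 genes the log2 ratio of AA to PBS had opposite signs in DMSO and in GSK-J4 in the deposited values. With equal totals none of the 3 did, as *Hmgcs1*, *Fdps* and *Fdft1* were at 0.009, 0.02 and 0.07 in DMSO. In GSK-J4 they were then at 0.19, 0.13 and 0.11. The share of all genes with opposite signs was not counted. The differences below are the same values as the GSK-J4 ratio with AA minus that without AA. The values that follow are as deposited. *Hmgcs1* was at -0.06 in DMSO and 0.17 in GSK-J4, a difference of 0.23. *Fdps* was at -0.05 and 0.10, a difference of 0.16. *Fdft1* was at -0.0015 and 0.09, a difference of 0.093. Each condition has 1 library, so the differences were not tested, and each compares libraries of the 2 tables.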

How the results depend on the processing

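The members' median log2 ratio for GSK-J4 without AA was -0.48 when centred on the median of all tested genes, -0.37 with each library divided by its upper quartile and -0.27 with each scaled to the same total. With AA these values were -0.42, -0.33 and -0.26. The number of members at least 2-fold lower was 5 without AA and 4 with AA at a 1.5-fold threshold, 0 in both under the upper quartile and the same total, and 0 with AA under centring. With the same total, 4 members were below 0 for AA in DMSO. The upper quartile and the same total moved the median of all tested genes from -0.17 to 0.08 and 0.17 without AA and from -0.16 to 0.07 and 0.14 with AA. Relative to it, the members' median was -0.44 without AA and -0.40 with AA under the same total. Apart from *Cyp51*, the other 7 members stayed below 0 for GSK-J4 under every alternative tried. In an alternative chosen after seeing the data, the lists beside the members were scaled likewise. Under the same total the medians without and with AA were 0.03 and 0.04 for the other sterol enzymes, 0.06 and 0.10 for fatty acid synthesis and -0.10 and -0.03 for the other isoprenoid genes. Against genes of similar expression, 8 members were under the median in each setting without AA and 7 or 8 with AA, where *Hmgcs1* was the exception. Of the group values under an alternative, 154 moved by less than 0.1 on the log2 scale or 1.5 times in a count, and 14 did not. Many of the 154 could not move. Every member has 1 row, no failed estimate and passes each filter, so those settings left the members' ratios unchanged.

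No paired analysis was possible because each condition has 1 library, so that the groups share fewer than 2 replicate numbers. With no replicates and no read counts, neither the spread between cultures nor counting error can be given, and the members with low FPKM, *Lss* and *Cyp51*, rest on the fewest reads per length.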
